A study of Mus musculus with 6 samples.

Results

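Oxidative phosphorylation subunit genes were followed in RNA of mouse splenic dendritic cells, which take up antigen and present it to T cells. The members were the nuclear genes whose symbols start with Nduf (followed by a, b, c, s or v), Uqcr, Atp5, Cox4i, Cox5, Cox6, Cox7 or Cox8, together with Sdha, Sdhb, Sdhc and Sdhd. Cox6a2 was left out of the members, and its values are given with complex IV. In the counts of 23420 genes, 91 symbols matched, and 86 of these had 10 or more reads in at least 3 libraries. The members were 36 genes of complex I, 4 of complex II, 8 of complex III, 14 of complex IV, 15 of complex V and 9 assembly and associated factors, which carry member symbols but are not counted here as subunits (Ndufaf1 to Ndufaf7, Atp5s and Atp5sl). All 86 also passed the expression filter of the test. Freshly isolated cells of C57BL/6 mice were compared, with 3 libraries under the label TBK1-DKO and 3 under wild type (WT). The age is given as 8 weeks in the protocol and 10 weeks in the sample characteristics. The labels do not spell out DKO or name the alleles, the promoter of any deleting transgene or the sorting of the cells. Nor do they say whether each library is its own animal; the p-values thus rest on the spread between libraries, which may be technical.

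Oxidative phosphorylation takes place at the inner mitochondrial membrane. Complex I oxidises NADH and complex II oxidises succinate, and both pass electrons by ubiquinone to complex III, from there by cytochrome c to complex IV, and so to oxygen. Complexes I, III and IV pump protons, and complex V, the ATP synthase, lets them flow back and makes ATP. Complexes I, III, IV and V also hold subunits encoded by mitochondrial DNA, which were not analysed here. Resting dendritic cells are known to rely on this pathway, and activated dendritic cells to shift towards glycolysis.

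The libraries held 45018389 to 47349648 gene reads in TBK1-DKO and 31077585 to 36145508 in WT. Levels are given as CPM (the count divided by the gene reads of the library and scaled to 1e6), and values are listed in the order of replicates 1, 2 and 3. Tbk1, a kinase of innate immune signalling, had 83.7, 78.8 and 83.8 CPM in the TBK1-DKO libraries, beside 91.7, 80.5 and 83.4 CPM in the WT libraries. Its counts over the whole gene did not differ beyond the spread (log2 fold change -0.05, SE 0.06, adjusted p = 0.629) and do not check the label, so TBK1-DKO below means the libraries so labelled. All 10 dendritic cell markers were detected (1 called higher and 2 lower), with a summed level of 12880 to 14540 CPM in TBK1-DKO and 13470 to 14760 CPM in WT. Markers of other cells differed between the groups. All 8 neutrophil, 4 erythroid, 6 plasma cell and 7 proliferation markers were called higher, with summed neutrophil levels of 5662 to 6512 CPM against 2318 to 2626 CPM. Lower calls were made for 6 of 6 macrophage, 5 of 6 T cell, 3 of 4 NK cell, 3 of 4 plasmacytoid and 2 of 5 B cell markers. In bulk RNA, fewer cells of a type and less RNA per cell cannot be told apart, and the part of these markers in the results below was not tested.

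Library TBK1-DKO 2 and library WT 1 stood apart from the other libraries in the members. TBK1-DKO 2 had the highest level of the 6 libraries in 68 of 86 members, against 25.2% of all 14388 genes tested, and WT 1 had the lowest in 44 of 86, against 23.3%. Both libraries also lay at the other extreme in many genes: of all 14388 tested, TBK1-DKO 2 was lowest in 3668 and WT 1 highest in 3353. The remaining libraries were each highest in 1602 to 2116 genes and lowest in 1540 to 2242. Results are therefore given with all 6 libraries and also without TBK1-DKO 2 and WT 1.

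With all 6 libraries, the nuclear transcripts of oxidative phosphorylation stood at nearly the same level in both groups, whereas without TBK1-DKO 2 and WT 1, the libraries left out for standing apart in these same genes, 41 of 86 were called lower and 3 higher. In that fit 23.5% of all genes tested were called lower and 24.2% higher. The summed level of the 86 members was 7482, 8458 and 7378 CPM in TBK1-DKO, against 7195, 7795 and 7788 CPM for the WT libraries. The groups overlapped, since TBK1-DKO 2 was the highest library and the other TBK1-DKO libraries lay between WT 1 and WT 3. With all libraries, 1 member rose (Ndufb9), 2 fell (Sdha and Cox4i2) and 83 were not called (quasi-likelihood test of edgeR, Benjamini-Hochberg adjusted p under 0.05). Of the 14388 genes tested, 13.7% were called higher and 9.9% lower. The median log2 fold change of the members, TBK1-DKO over WT, was 0.04, beside 0.00 over all genes tested.

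The test also bounded most of the members' differences. In 83 of 86 members the 95% interval of the fold change lay wholly within 1.5-fold in either direction, beside 70.1% of all genes tested and 89.0% of the genes tested at a mean of 10 CPM or more. The 3 exceptions were Cox4i2, Cox7a1 and Cox6b2, the members of complex IV with the lowest levels. Each interval is for its own gene and is not adjusted for the number of genes. The groups did not overlap in 9 members, 4 higher and 5 lower in TBK1-DKO, where 41.0% of all genes tested did not overlap (20.9% higher, 20.0% lower). The plot of fold changes shows the members by complex.

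**Figure D1:**
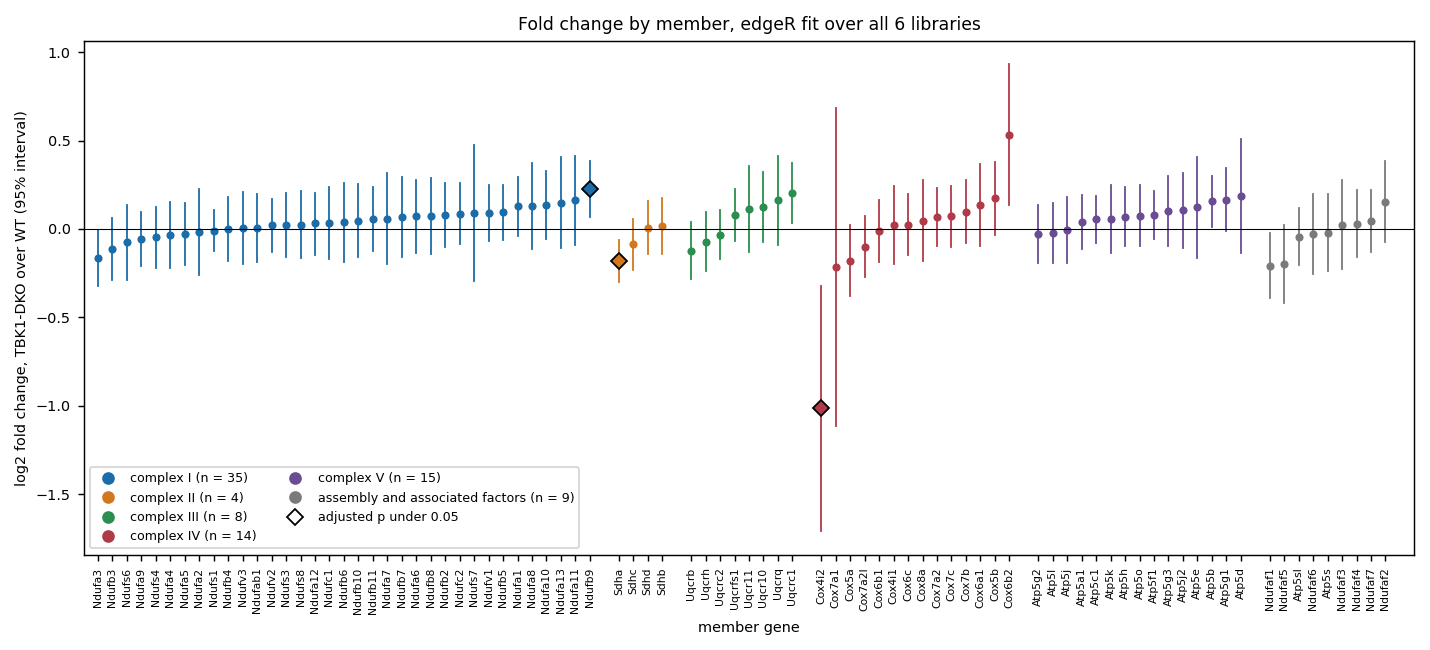
Log2 fold change of TBK1-DKO over WT (vertical axis) for 85 of the 86 members, grouped by complex and sorted within it, with 95% intervals from edgeR. Most points lie near 0, and the 3 called members, Ndufb9, Sdha and Cox4i2, are drawn as diamonds.

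Levels between genes were compared per transcript length, as CPM per kilobase of transcript in WT. Subunits of complexes IV and V had the highest levels, with medians of 156 and 152, complexes II and III followed with 85.1 and 85.3, and complex I had 59.4. The assembly and associated factors had a median of 8.72. The ATP synthase beta subunit gene Atp5b was the highest member, at 357 ± 13.1 (SD, n = 3) in WT and 396 in TBK1-DKO. Cox4i1 (317 ± 38.5), the common form of complex IV subunit IV, and Uqcrh (292 ± 13.9), the hinge protein of complex III, led their complexes, and these WT levels of Atp5b and Cox4i1 did not differ beyond their spread. Within complex I, Ndufa4 was highest at 161 ± 9.68. Ndufa4, named after complex I but since assigned to complex IV, had 92.6, 107.5 and 86.0 CPM in TBK1-DKO, against 104.7, 95.8 and 93.6 CPM in WT, with overlap (log2 fold change -0.03). Its paralog Ndufa4l2 had 1 to 7 reads per library and is no member. Lengths came from the shortest RefSeq-matched transcript, and for a few genes the choice matters: Atp5g1 stood at 113 with that length and at 14.3 with its longest transcript.

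**Figure D2:**
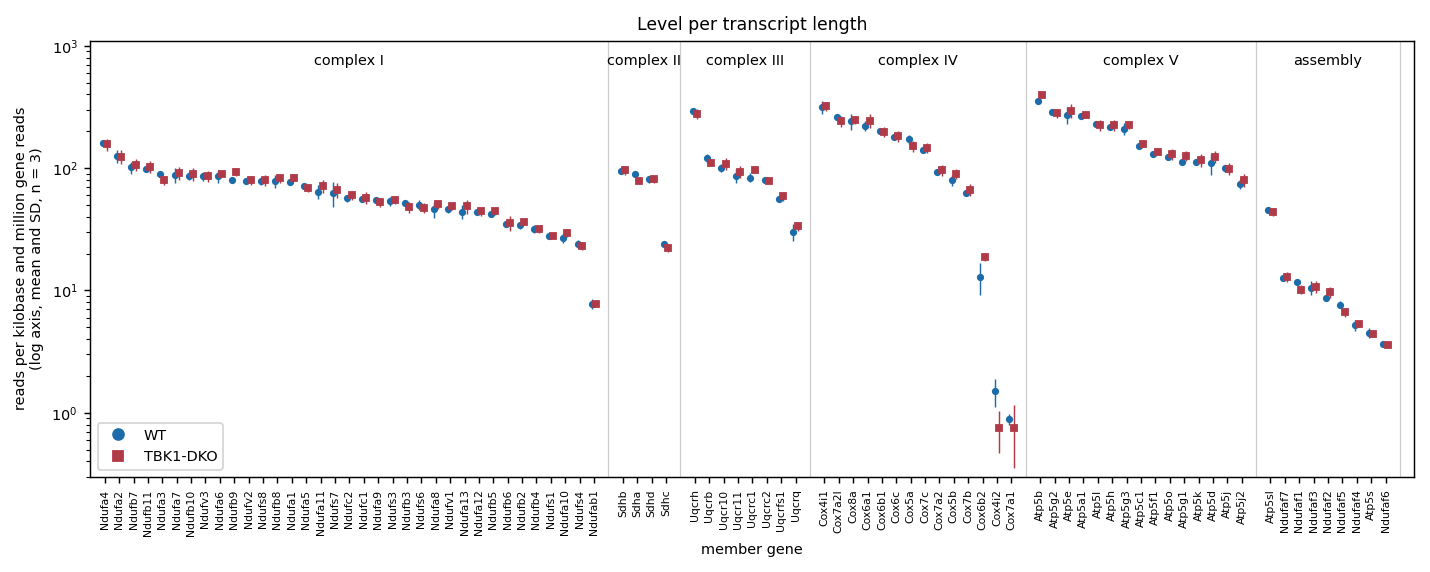
Level per transcript length on a log axis for 85 of the 86 members, as mean and SD of 3 libraries in WT (circles) and TBK1-DKO (squares). The 2 groups lie close together in nearly every member, and the tissue-restricted forms Cox6b2, Cox4i2 and Cox7a1 lie far below the other genes of complex IV.

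Promoter letters, which the selection did not use, were searched in the members. At least 1 of 3 motifs was held by 41 of 73 promoters (56.2%), and the others held none. The share was 31.6% among promoters of genes tested and 16.9% among all promoters. These shares and those below are descriptions, and their differences were not tested. The nuclear genes of this pathway are known targets of NRF1, of GABP (an ETS factor) and of YY1. RefSeq promoters (250 bases before to 50 after the start, GRCm38.p6, 1 per gene) were found for 73 members and searched on both strands for CGCANGCG (NRF1), CCGGAAG (GABP/ETS) and AAGATGGCG (YY1). The NRF1 letters were in 26 of 73 member promoters (35.6%), beside 16.2% of the 11446 promoters of genes tested and 8.4% of 27025 promoters in all. The GABP/ETS letters were in 21.9% of member promoters, beside 16.9% and 9.1%, and the YY1 letters in 9.6%, beside 2.9% and 1.5%. In no member did these matches overlap each other. Such matches describe sequence and do not show binding. Of the promoters below, Sdha is a called member with 3 NRF1 matches, and Cox6a1 holds 2 NRF1 matches and 1 GABP/ETS match. Ndufs6 holds 1 NRF1 match here and a YY1 match after the start. Cox6b2, a testis-type form, holds none of the 3 motifs, and neither does Atp5b, the highest member per length. Each run is the 250 bases before the start, 5′ to 3′, and capitals mark the matches.
Sdha, chr13:74350241-74350490, minus strand: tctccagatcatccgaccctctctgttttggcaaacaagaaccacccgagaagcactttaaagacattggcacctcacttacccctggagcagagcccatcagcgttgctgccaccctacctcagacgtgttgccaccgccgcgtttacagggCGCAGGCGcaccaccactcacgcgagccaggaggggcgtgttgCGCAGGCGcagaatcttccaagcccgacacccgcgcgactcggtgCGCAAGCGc
Cox6a1, chr5:115348959-115349208, minus strand: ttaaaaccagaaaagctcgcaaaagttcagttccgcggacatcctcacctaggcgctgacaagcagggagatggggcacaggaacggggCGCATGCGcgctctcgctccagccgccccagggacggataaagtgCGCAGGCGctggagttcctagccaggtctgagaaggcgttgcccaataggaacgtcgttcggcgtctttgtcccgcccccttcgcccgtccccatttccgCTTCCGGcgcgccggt
Ndufs6, chr13:73328483-73328732, minus strand: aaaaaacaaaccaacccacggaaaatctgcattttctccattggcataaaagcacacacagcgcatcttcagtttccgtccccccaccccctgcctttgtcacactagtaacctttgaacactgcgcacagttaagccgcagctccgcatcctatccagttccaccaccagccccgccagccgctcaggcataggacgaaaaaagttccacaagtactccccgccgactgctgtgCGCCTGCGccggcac
Cox6b2, chr7:4753095-4753344, minus strand: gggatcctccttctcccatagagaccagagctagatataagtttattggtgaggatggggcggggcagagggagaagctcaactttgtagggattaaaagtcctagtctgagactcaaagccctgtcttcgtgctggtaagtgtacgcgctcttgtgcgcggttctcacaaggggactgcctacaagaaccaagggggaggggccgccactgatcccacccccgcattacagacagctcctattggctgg

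Complex I members showed little difference between the groups with all libraries. Of 36 members 1 rose, 0 fell and 35 were not called, with a median log2 fold change of 0.04 and a range from -0.17 to 0.23. Their summed level was 1825, 2092 and 1796 CPM in TBK1-DKO, against 1745, 1932 and 1935 CPM in WT, so that the groups overlapped. Ndufb9 (chromosome 15, 58933756 to 58939488, plus strand), an accessory subunit of the membrane arm, stood at 62.8, 71.0 and 62.4 CPM in TBK1-DKO, against 53.2, 59.2 and 55.8 CPM in WT. All 3 TBK1-DKO libraries lay above all 3 WT libraries, and TBK1-DKO 2 was the highest. Its log2 fold change was 0.23 (SE 0.07, 95% interval 0.07 to 0.39, adjusted p = 0.0448), a 1.17-fold difference. The call was lost whichever single library was left out (adjusted p = 0.0571 to 0.157). Without TBK1-DKO 2 and WT 1 together the log2 fold change was 0.11 (adjusted p = 0.0243). Those 2 libraries were left out for standing apart in the members, and 24.2% of all genes tested were called higher there. That fit is therefore no separate test of the call.

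Other accessory subunits of complex I lay on either side of 0. Ndufa3 stood at 39.8, 45.3 and 38.7 CPM in TBK1-DKO, against 46.5, 45.4 and 47.3 CPM in WT, without overlap, but missed the threshold (log2 fold change -0.17, SE 0.07, adjusted p = 0.128). Ndufa1 stood at 33.9, 37.7 and 33.4 CPM against 30.1, 33.9 and 32.3 CPM, with overlap between the groups (log2 fold change 0.13, adjusted p = 0.265). The core subunit genes Ndufs1, Ndufs3, Ndufs7, Ndufs8, Ndufv1 and Ndufv2 had log2 fold changes from -0.009 (Ndufs1) to 0.09 (Ndufv1), and none of them was called. Ndufs1, the gene of the largest core subunit, stood at 74.4, 71.1 and 75.5 CPM against 75.5, 74.1 and 73.6 CPM. Ndufs7 varied more, at 45.9, 57.8 and 46.7 CPM against 34.8, 54.4 and 52.3 CPM, where WT 1 was the lowest library and TBK1-DKO 2 the highest. Ndufs5, also an accessory subunit, was listed at 0 reads in all 6 libraries and is no member. Multiply aligned and ambiguous reads are kept apart from the gene counts, so a listed 0 does not show that the gene is silent.

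Complex II, which is also the succinate dehydrogenase of the tricarboxylic acid cycle, held 1 of the called members. Sdha (chromosome 13, 74322254 to 74350280, minus strand), the gene of the flavoprotein that oxidises succinate, stood at 223.6, 229.3 and 229.5 CPM in TBK1-DKO, against 260.0, 265.0 and 251.5 CPM in WT. The 3 TBK1-DKO libraries lay close together and below all WT libraries, and neither TBK1-DKO 2 nor WT 1 stood out. Sdha fell by 0.18 on the log2 scale (SE 0.05, 95% interval -0.30 to -0.06, adjusted p = 0.0324), to 0.882 of the WT level. The call was lost without TBK1-DKO 1 or 3 or without WT 2 or 3 (adjusted p = 0.0571 to 0.143). Without TBK1-DKO 2 and WT 1 together the log2 fold change was -0.21 (adjusted p = 2.7e-08). That p-value rests on libraries chosen for the members, in a fit that called 23.5% of all genes tested lower, and is no separate test.

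The other 3 genes of complex II were not called with all libraries. Sdhb, the gene of the iron-sulphur subunit, stood at 107.8, 120.3 and 101.5 CPM in TBK1-DKO, against 106.4, 109.1 and 111.3 CPM in WT (log2 fold change 0.02, SE 0.07). Sdhc and Sdhd encode the membrane anchors. Sdhc stood at 66.6, 76.6 and 69.5 CPM against 75.2, 74.9 and 76.7 CPM (log2 fold change -0.09), and Sdhd at 97.3, 106.9 and 95.1 CPM against 107.1, 97.1 and 94.6 CPM (0.01). The groups overlapped in all 3 of these genes.

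Complex III had the highest median of the complexes with all libraries, 0.09, and 0 of its 8 members were called by edgeR. At an unadjusted p under 0.05 there was 1 member, beside 5070 of all 14388 genes tested. DESeq2 and limma-voom also called 0 of the 8 members. DESeq2 called 13.0% of all genes tested higher and 9.95% lower, and limma-voom 13.5% and 9.84%. Uqcrc1 (chromosome 9, 108936633 to 108949623, plus strand), the gene of a core protein of the matrix side, was the member with an unadjusted p under 0.05. It stood at 151.6, 169.8 and 155.6 CPM in TBK1-DKO, against 126.5, 139.7 and 149.3 CPM in WT, without overlap (log2 fold change 0.20, SE 0.08, adjusted p = 0.0831). Uqcrfs1, the gene of the Rieske iron-sulphur protein, stood at 76.6, 87.5 and 75.9 CPM against 76.8, 74.7 and 76.9 CPM (log2 fold change 0.08), so that TBK1-DKO 2 alone lay above the WT range. Uqcrb, the gene of a small subunit near the quinone site, stood at 57.7, 63.2 and 56.3 CPM against 70.8, 60.6 and 62.4 CPM (-0.12). Uqcrh stood at 149.5, 165.9 and 139.3 CPM against 151.1, 164.1 and 164.3 CPM (-0.07), with overlap. Uqcrq, the gene of another small subunit, stood at 47.39, 55.46 and 49.96 CPM against 37.29, 49.66 and 49.94 CPM (0.16), with WT 1 far below the other 5 libraries.

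Complex IV held the largest differences, and they were in forms with low levels. With edgeR, 0 of 14 members rose and 1 fell, the other 13 missed the threshold, and the median log2 fold change was 0.04. Before adjustment, 2 members had a p under 0.05, as did 5070 of all 14388 genes tested. DESeq2 called 1 higher (Cox6b2) and 1 lower, and limma-voom 0 higher and 1 lower. Cox4i2 (chromosome 2, 152754173 to 152765037, plus strand) encodes the form of subunit IV known from lung and from low oxygen. It had 15, 28 and 32 reads in TBK1-DKO, against 24, 44 and 44 reads in WT, that is 0.317, 0.612 and 0.711 CPM against 0.772, 1.22 and 1.30 CPM. The groups did not overlap, although WT 1 and TBK1-DKO 3 lay close together. Cox4i2 fell by 1.01 on the log2 scale (SE 0.31, 95% interval -1.71 to -0.32, adjusted p = 0.0398). The call was lost without TBK1-DKO 1 or without WT 2 or 3 (adjusted p = 0.111 to 0.139). Without TBK1-DKO 2 and WT 1 the value was -1.32 (adjusted p = 2.68e-04). In that fit, with libraries chosen for the members, 23.5% of all genes tested were called lower, so it is no separate test. Per transcript length Cox4i2 stood at 1.51 ± 0.39 in WT beside 317 ± 38.5 for Cox4i1, so that Cox4i1 made up nearly all of the measured subunit IV transcripts in both groups.

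Cox4i1 itself did not differ beyond the spread with all libraries. It stood at 225.2, 264.3 and 228.4 CPM in TBK1-DKO, against 203.7, 258.4 and 246.0 CPM in WT (log2 fold change 0.02, SE 0.10), with the 2 libraries that stood apart at the top and the bottom. Cox6b2 (chromosome 7, 4751792 to 4753094, minus strand), the testis-type form of subunit VIb, stood at 7.48, 8.48 and 7.84 CPM against 3.67, 6.61 and 6.11 CPM, without overlap, and missed the threshold with edgeR (log2 fold change 0.53, SE 0.18, adjusted p = 0.0564) but passed it with DESeq2 (adjusted p = 0.017). Without TBK1-DKO 2 and WT 1, left out because of the members, its value was 0.25 (adjusted p = 0.0387). WT 1 was the lowest of the 6 libraries. The ubiquitous form Cox6b1 stood at 117.3, 136.2 and 115.6 CPM against 116.3, 129.6 and 127.4 CPM (log2 fold change -0.01), with overlap.

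The remaining forms of complex IV subunits were not called with all libraries. Cox7a2l, which encodes a factor of respiratory supercomplexes, stood at 252.3, 289.0 and 240.4 CPM against 265.5, 288.3 and 286.8 CPM (log2 fold change -0.10), above Cox7a2 at 60.3, 70.9 and 59.7 CPM against 61.9, 59.4 and 61.7 CPM (0.07). Per length, Cox7a2l stood at 260 ± 11.8 and Cox7a2 at 92.6 ± 2.11 in WT. The muscle form Cox7a1 had 9, 22 and 10 reads in TBK1-DKO, against 10, 12 and 13 in WT, too few to bound its difference within 1.5-fold. Of Cox8, the common form Cox8a stood at 132.7, 147.1 and 129.6 CPM against 110.9, 142.2 and 144.3 CPM (0.05), while Cox8b had 0 to 5 reads and Cox8c and Cox7b2 had 0 reads per library. Cox5a and Cox5b encode different subunits. Cox5a stood at 93.2, 109.7 and 91.5 CPM against 100.6, 114.2 and 119.7 CPM (-0.18, adjusted p = 0.185) and Cox5b at 72.8, 86.4 and 74.9 CPM against 61.0, 72.4 and 74.6 CPM (0.18, adjusted p = 0.214). Cox6a2, a muscle-type form that the selection leaves out, differed from the members beside it: it stood at 7.84, 8.42 and 7.24 CPM against 23.8, 24.4 and 22.6 CPM and fell by 1.59 on the log2 scale (SE 0.08, adjusted p = 1.46e-06). Cox6a2 was lower in TBK1-DKO, as were 3 of 4 plasmacytoid dendritic cell markers (median log2 fold change of the list -0.45) and 6 of 6 macrophage markers (-0.55). Some T cell, NK cell and B cell markers were also called lower, while neutrophil, erythroid, plasma cell and proliferation markers were called higher. Whether any of these are linked to Cox6a2 was not tested.

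**Figure D3:**
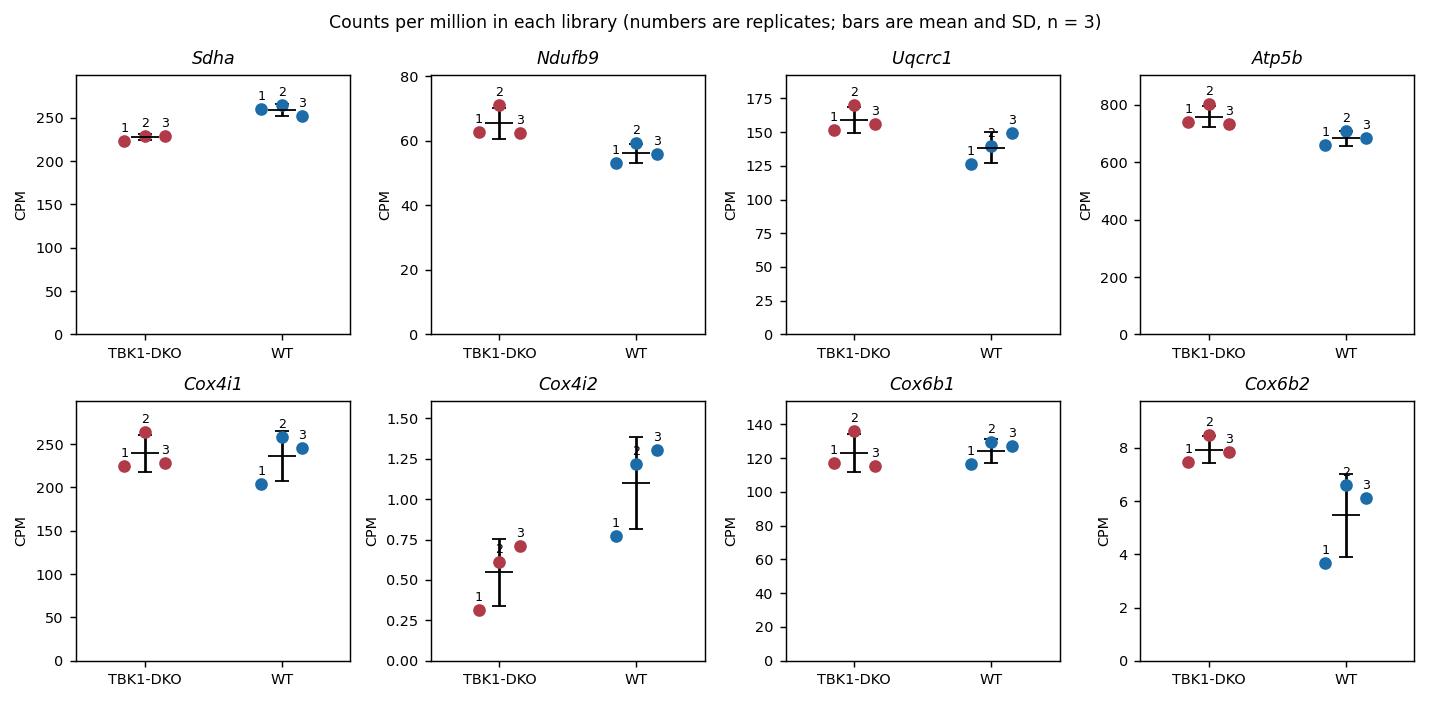
CPM in each library for 8 members, with replicate numbers and the mean and SD of 3 libraries per group. Sdha is lower in all TBK1-DKO libraries, Ndufb9, Uqcrc1 and Atp5b are higher without overlap, and the paired panels contrast the common forms Cox4i1 and Cox6b1 with Cox4i2 and Cox6b2.

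Complex V members mostly lay slightly above 0 with all libraries, and 0 of 15 were called by edgeR, DESeq2 or limma-voom. In edgeR 1 of them had an unadjusted p under 0.05, beside 5070 of all 14388 genes tested. The median log2 fold change was 0.08, and 12 of 15 values were above 0, beside 50.2% of all genes tested. The summed level was 2983, 3324 and 2928 CPM in TBK1-DKO, against 2776, 2999 and 2979 CPM in WT, with overlap. Atp5b (chromosome 10, 128083273 to 128090391, plus strand), which encodes the catalytic beta subunit, stood at 741, 801 and 734 CPM against 659, 709 and 683 CPM. The groups did not overlap, but the test did not call the gene (log2 fold change 0.16, SE 0.07, adjusted p = 0.12). Its partner in the catalytic head, Atp5a1, stood at 659.7, 704.5 and 646.0 CPM against 614.0, 676.2 and 672.4 CPM (0.04).

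The genes Atp5g1, Atp5g2 and Atp5g3 encode the same mature ring subunit of the synthase with different targeting sequences. Atp5g2 was the most abundant of them by CPM, at 198.4, 225.2 and 192.1 CPM against 198.5, 215.0 and 216.8 CPM (log2 fold change -0.03). Atp5g3 stood at 156.8, 171.8 and 152.6 CPM against 131.0, 156.5 and 162.6 CPM (0.10), and Atp5g1 at 70.7, 84.1 and 71.2 CPM against 63.9, 71.2 and 67.0 CPM (0.17, adjusted p = 0.173). The groups overlapped in all 3. Atp5d, the gene of the delta subunit, showed how far WT 1 could lie from its group, at 78.9 CPM beside 110.2 and 116.8 CPM in WT 2 and 3 and 108.3, 130.4 and 108.5 CPM in TBK1-DKO.

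None of the 9 assembly and associated factors was called by edgeR, DESeq2 or limma-voom, and their median was -0.02. Ndufaf1, which encodes a chaperone of complex I assembly, stood at 12.7, 14.6 and 12.5 CPM in TBK1-DKO, against 15.5, 15.6 and 15.1 CPM in WT, without overlap. It had the only unadjusted p under 0.05 of this group in edgeR (log2 fold change -0.21, SE 0.08, adjusted p = 0.0989). Such a p was found in 5070 of all 14388 genes tested. Ndufaf5 stood at 7.01, 8.07 and 8.26 CPM against 8.40, 9.55 and 8.89 CPM, also without overlap (-0.20, adjusted p = 0.181). Atp5sl, the highest of the group per length, stood at 61.0, 69.7 and 62.7 CPM against 62.4, 69.8 and 67.9 CPM (-0.05), with overlap. Ndufaf2, also a complex I assembly factor, stood at 6.63, 7.17 and 5.86 CPM against 6.21, 5.84 and 5.69 CPM (0.16), with overlap.

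The spread of single libraries was larger than the difference between the groups. For each member, log2 CPM was set against its mean over the WT libraries, and the median over the 86 members was -0.01, 0.19 and -0.06 for TBK1-DKO, against -0.10, 0.05 and 0.05 for WT. Over all genes tested the same medians lay between -0.003 and 0.009, as the scaling of each library holds the typical gene near 0. It also holds the shares of all genes below near even, so neither shows that other genes lacked a shift. TBK1-DKO 2 exceeded the mean of TBK1-DKO 1 and 3 in 84 of 86 members, by a median of 0.21 on the log2 scale, where 50.8% of all genes tested did so. WT 1 lay below the mean of WT 2 and 3 in 69 of 86 members, by a median difference of -0.15, where 48.4% of all genes tested did so. The other libraries of each group lay close together, with median differences of 0.03 between TBK1-DKO 1 and 3 and -0.005 between WT 2 and 3.

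The shift of TBK1-DKO 2 was seen in every complex, and that of WT 1 was uneven. TBK1-DKO 2 minus the other 2 libraries of its group had medians of 0.21 in complex I, 0.17 in complex II, 0.20 in complex III, 0.24 in complex IV, 0.25 in complex V and 0.18 in the assembly group. WT 1 minus the other 2 WT libraries had medians of -0.18, -0.02, -0.16, -0.20, -0.10 and -0.02 in the same order. The median SD within TBK1-DKO was 0.127 for members and 0.102 for all genes tested, and within WT it was 0.097 and 0.092.

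**Figure D4:**
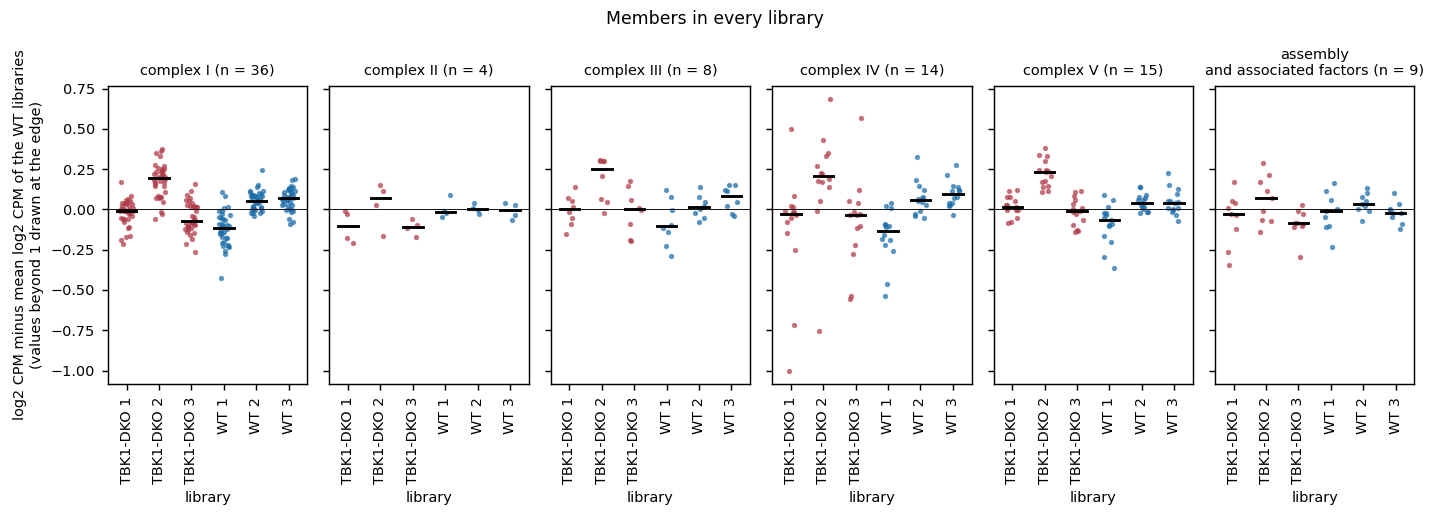
Log2 CPM of each member minus its mean over the 3 WT libraries (points, with the median as a bar) in every library, by complex. TBK1-DKO 2 is highest in all 6 panels, and WT 1 is lowest in complexes I, III, IV and V, whereas TBK1-DKO 1 and 3 lie at or below WT 2 and 3.

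Both shifts went with transcript length and GC content, across all genes as well as across members. The members are short, with a median transcript length of 751.5 bases beside 2610 for all genes tested, at a median GC content of 51.3% beside 50.6%. Across the 86 members, the shift of TBK1-DKO 2 had a Spearman rho of -0.483 with length and 0.398 with GC content, and that of WT 1 a rho of 0.21 with length and -0.695 with GC content. Across 14273 genes tested, the corresponding values were -0.515, 0.297, 0.2 and -0.512. These are descriptions across genes that share libraries and are not independent. Other lists of genes differed in these shifts. The median shift of TBK1-DKO 2 was 0.26 in 77 cytosolic ribosomal protein genes and 0.20 in 76 mitochondrial ribosomal protein genes, and that of WT 1 was -0.15 and -0.11. In 8 neutrophil markers the medians were 0.18 for TBK1-DKO 2 and -0.12 for WT 1. They went the other way in 18 regulators of mitochondrial biogenesis, at -0.07 and 0.04. The part of transcript length in these lists was not tested.

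The direction of the members as a group rested on the libraries included. Without TBK1-DKO 2, 0 members were called higher and 10 lower, where 15.7% and 14.4% of all genes tested were called, and the median was -0.05. Without TBK1-DKO 2 and WT 1 together, 3 were called higher (Ndufb9, Atp5b and Cox6b2) and 41 lower, where 24.2% and 23.5% of all genes tested were called, and the median was -0.09. In that comparison 19 of 36 members of complex I, 3 of 4 of complex II, 2 of 8 of complex III, 7 of 14 of complex IV, 6 of 15 of complex V and 4 of 9 assembly factors were lower. The differences were small: Cox5a had a log2 fold change of -0.36 (SE 0.03), Cox7a2l -0.24 (SE 0.03), Uqcrh -0.20 (SE 0.03), Cox4i1 -0.17 (SE 0.03) and Atp5g2 -0.16 (SE 0.03). The left-out libraries were chosen because they stood apart in these same genes, and the 4 that remained lay close together, so these standard errors reflect that choice.

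Taking out each library's trend with length and GC content, with all 6 libraries kept, gave the opposite balance. In that fit 6 members were called higher (Atp5b, Atp5g1, Cox6b2, Ndufa1, Ndufb9 and Uqcrc1) and 3 lower, Cox4i2 and Sdha among them, where 17.7% and 16.5% of all genes tested were called. The median log2 fold change was 0.05, and the median standard error of the members fell from 0.081 to 0.057. Sdha and Cox4i2 were lower and Ndufb9 was higher in this fit, in the fit of all libraries and in the fit without TBK1-DKO 2 and WT 1. These fits share libraries and are not separate tests. With 1 library left out at a time, Sdha was called in 2 of 6 fits, Cox4i2 in 3 and Ndufb9 in 0.

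**Figure D5:**
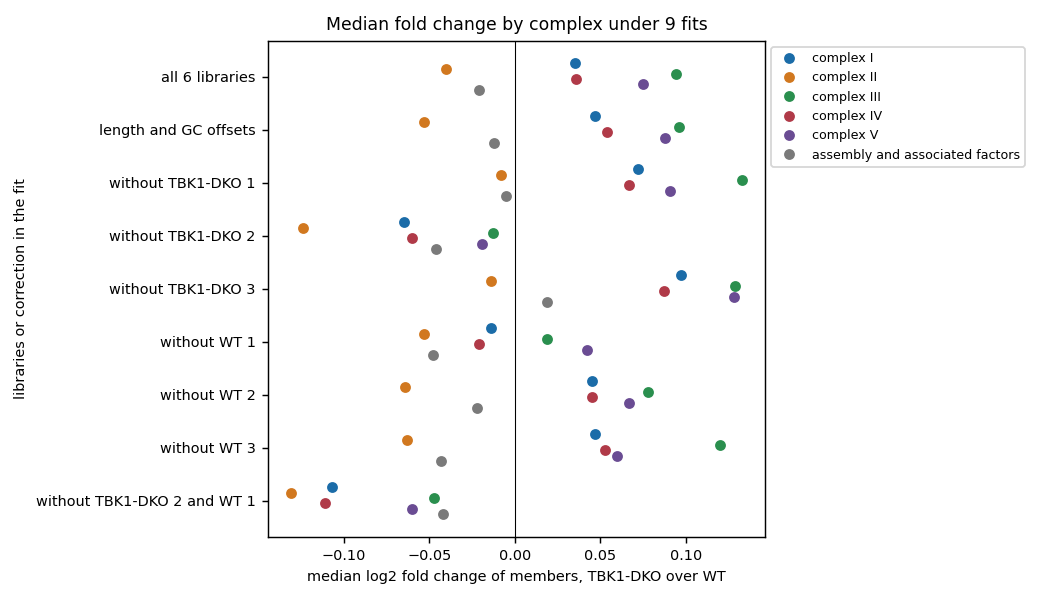
Median log2 fold change of the members of each complex (horizontal axis) in 9 edgeR fits that differ in the libraries included or in a correction. The medians of complexes I, III, IV and V lie above 0 with all 6 libraries and with length and GC offsets, and below 0 without TBK1-DKO 2 and without TBK1-DKO 2 and WT 1, while complex II lies below 0 in all 9.

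Other genes of mitochondrial respiration were read from the same fit with all libraries. Of 35 tested genes of cytochrome c, the complex III subunit Cyc1 and further assembly factors, 1 rose and 1 fell. The selection by symbol does not take in Cyc1, so it is not among the members of complex III. Tmem186, of complex I assembly, rose from a mean of 19.3 to 22.8 CPM (log2 fold change 0.25), and Lyrm7, which matures the Rieske protein, fell from 2.45 ± 0.48 to 1.51 ± 0.07 CPM (-0.69, adjusted p = 0.0123). Of 18 regulators of mitochondrial biogenesis 0 were called by edgeR. An unadjusted p under 0.05 was found in 2 of them, beside 5070 of all 14388 genes tested. Of 76 mitochondrial ribosomal protein genes 1 rose (Mrps7, log2 fold change 0.38) and 0 fell. Of 19 genes of the tricarboxylic acid cycle and its entry, 3 rose and 0 fell, where 13.7% of all genes tested were called higher and 9.9% lower. Sdha, which belongs to the cycle and was called lower, is not in this list. Mdh2, mitochondrial malate dehydrogenase, stood at 363 ± 32.5 against 287 ± 15.2 CPM (log2 fold change 0.34, SE 0.08), and Fh1, fumarate hydratase, at 105 ± 4.74 against 75.4 ± 0.81 CPM (0.48, SE 0.06). Pcx, pyruvate carboxylase, which makes oxaloacetate, stood at 20.1 ± 0.84 against 11.1 ± 0.63 CPM (0.86, SE 0.08). Fumarate hydratase and malate dehydrogenase catalyse the steps that follow succinate oxidation, the step of complex II. Whether the higher calls of Fh1 and Mdh2 are linked to the lower call of Sdha was not tested.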

How the data were processed

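RNA-seq libraries of splenic dendritic cells were deposited by the authors as whole-number read counts per gene symbol, 1 table per library, unscaled. The submitters' processing notes name HTSeq, TopHat, TopHat2, DESeq2 and build mm10; versions, annotation and strand setting were not found in these sources. Rows that name no gene held 8.2% to 10.72% of counted records and were left out. Counts of the 23420 genes were filtered with filterByExpr (minimum count 10), which left 14388 genes, scaled by TMM (factors 0.996 to 1.012) and compared with edgeR 4.0.16 (R 4.3.3) by the quasi-likelihood F test with robust dispersions and no covariates. Calls were made at 0.05 after Benjamini-Hochberg adjustment over the whole set of tested genes; standard errors were derived from the F statistic. On simulated counts with known changes the fold changes were recovered without bias. The share of false calls averaged 8.13% there, above the nominal level, which may bear on calls near the threshold such as those of the members. Changes of 1.23-fold were called in 22.1% of simulated cases and changes of 1.5-fold in 75.6%. Members not called may still differ slightly. The simulated counts held no shift of single libraries such as that of TBK1-DKO 2 and WT 1. They also held far fewer changed genes than the 23.6% of genes called in the data, which makes the adjusted threshold stricter there. The simulated shares of false calls and of called changes therefore need not hold for the members. CPM use gene reads without TMM factors; log2 CPM per library use TMM factors and a prior count of 2. Transcript lengths, GC content and positions came from GENCODE M21 (GRCm38, the assembly of mm10): 21777 symbols matched directly, 1297 by RefSeq synonym and 346 not. Promoters came from RefSeq. The length definition (shortest RefSeq-matched transcript), the 1.5-fold bound, the 10 CPM subset and the promoters printed were chosen after values were seen.

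Alternatives were DESeq2 1.42.0, limma-voom (limma 3.58.1), RLE and upper-quartile factors, other filters, the replicate number as a block, non-robust dispersions, length and GC offsets per library (99.2% of tested genes had both), removal of 10 haemoglobin and immunoglobulin genes, other thresholds and left-out libraries. The members, lists and tests were chosen with earlier results of these data known. Every member could be named; values in every library are given for called members, the 3 with the smallest p in each complex, the highest per length, forms of 1 subunit, and members whose groups did not overlap. Ndufs7, Atp5a1, Uqcrfs1, Ndufs1 and Cox6a2 were added after their values were seen. Many members have processed pseudogenes, and reads that align to several places are not in the counts, so their levels are uncertain to that extent. The single values of 1 member are not reported here. Figures were drawn with matplotlib 3.10.9.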

Additional observations from a re-analysis of the deposited data

How the results depend on the processing

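With all libraries 1 member was called higher and 2 lower, where 13.7% and 9.9% of all genes tested were called. The count of higher calls was 2 with DESeq2, 0 with limma-voom, upper-quartile factors, no filter on low counts or a filter of 5 CPM, 6 with length and GC offsets, 3 without TBK1-DKO 2 and WT 1, 0 at an adjusted p of 0.01 and 3 at 0.1. Among all genes tested, DESeq2 called 13.0% higher, limma-voom 13.5% and upper-quartile factors 12.6%. The share was 10.2% with no filter, 13.8% with the 5 CPM filter, 17.7% with the offsets and 24.2% without TBK1-DKO 2 and WT 1. The count of lower calls was 1 with the 5 CPM filter, which leaves Cox4i2 untested, 41 without TBK1-DKO 2 and WT 1, and 0 at an adjusted p of 0.01. The share of all genes tested called lower was 10.5% with the 5 CPM filter and 23.5% without TBK1-DKO 2 and WT 1. Shares of all genes at an adjusted p of 0.01 or 0.1 are not given here. The member counts at those thresholds therefore cannot be set against other genes. Leaving out 1 library at a time gave 0 to 1 higher and 0 to 10 lower calls, the 10 without TBK1-DKO 2. In these fits 9.1% to 15.7% of all genes tested were called higher and 6.62% to 14.4% lower, with the highest shares without TBK1-DKO 2. The median without TBK1-DKO 2 and WT 1 was -0.086 over all members, -0.107 in complex I, -0.131 in complex II, -0.047 in complex III, -0.111 in complex IV and -0.060 in complex V.

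With 1 library left out at a time, the median log2 fold change ranged from -0.051 to 0.087 in all members, from -0.065 to 0.097 in complex I, from -0.124 to -0.008 in complex II, from -0.013 to 0.133 in complex III, from -0.060 to 0.087 in complex IV, from -0.019 to 0.128 in complex V, and from -0.048 to 0.019 in the assembly group. Genes named by rule whose direction turned in such a fit ranged from -0.125 to 0.019 (Atp5g2), from -0.078 to 0.082 (Cox4i1), from -0.116 to 0.033 (Cox6b1), from -0.762 to 0.029 (Cox7a1), from -0.043 to 0.111 (Cox7a2), from -0.072 to 0.101 (Cox8a), from -0.152 to 0.037 (Ndufa4), from -0.077 to 0.073 (Sdhb), from -0.067 to 0.055 (Sdhd).

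Without TBK1-DKO 2 and WT 1, 14 of 86 members lay above 0, beside 57 with all libraries. Among the members named by rule, the direction turned there for Atp5d (-0.082), Atp5g3 (-0.060), Cox4i1 (-0.169), Cox5b (-0.008), Cox7a2 (-0.029), Cox8a (-0.143), Sdhb (-0.090), Sdhd (-0.011) and Uqcrq (-0.049). It also turned for Ndufs7 (-0.221), Atp5a1 (-0.062), Uqcrfs1 (-0.006) and Ndufs1 (0.006), which were added after their values were seen. Among the members named by rule it turned with length and GC offsets for Cox4i1 (-0.011), Cox6b1 (0.017), Ndufa4 (0.047) and Sdhb (-0.021), with upper-quartile factors for Sdhb (-0.004) and Sdhd (-0.013), and with no filter for Sdhd (-0.005). The cause of these changes was not tested. The groups share replicate numbers, and same-numbered libraries had correlations of their deviations of 0.182, 0.149 and -0.065. Not every pair exceeded 0.1, so the libraries were not treated as paired; whether numbers 1 and 2 mark a shared batch was not tested. With the replicate number as a block, 3 members were called higher and 2 lower, beside 2313 and 1773 of all genes tested (1978 and 1424 without the block), and not every library correlated best with its own number. Cox4i2 and Cox7a1, at 9 to 44 reads per library, are limited by depth.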
